A study of Mus musculus with 8 samples.

Results

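Immediate early genes of the EGR, KLF, IER and MYC families were followed in primary mouse myofibroblastic hepatic stellate cells (pMF-HSCs), namely Egr1, Egr2, Egr3, Klf2, Klf4, Klf6, Klf10, Ier2, Ier3 and Myc. They were chosen by name, with earlier results of these data known, and all 10 were found among the 40840 genes of the tables. Hepatic stellate cells store vitamin A in the liver and become collagen-secreting myofibroblasts when cultured on plastic. The cells came from male C57BL/6J mice aged 15 to 18 weeks, were sorted on retinol autofluorescence and were cultured for 7 days in serum-containing medium, which applied to both groups. They then received DMSO as vehicle (control, n = 4) or the O-GlcNAc transferase (OGT) inhibitor OSMI-1 at 50 µM (OGTi, n = 4) for 24 h. The replicates are independent experiments in which control and OGTi cultures form pairs, and 1 inhibitor at 1 dose and 1 time was tested. The mice were wild type. Ogt itself, the gene of the inhibited enzyme, did not pass the test (log2 fold change -0.16 ± 0.24 SE, edgeR adjusted p 0.714), and enzyme activity is not measured by RNA.

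Immediate early genes are switched on within minutes of a growth factor, stress or mechanical signal, before any new protein is made, and their short-lived mRNAs decay within hours. Serum response factor (SRF) with its TCF partners (the ELK proteins) acts at the promoters of many of them downstream of ERK signaling. EGR proteins are zinc finger activators held in check by the NAB corepressors, KLF proteins are zinc finger factors that bind GC-rich and CACCC boxes, and MYC drives growth genes as a dimer with MAX. In the liver, KLF6 is known as a factor induced when stellate cells are activated.

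Library depth lay between 30068876 and 37372420 expected counts (reads assigned to genes, with shared reads split by estimate). Each member but Egr3 and Klf2 had at least 148 counts in every library. Markers of stellate cells summed to between 2124 and 3759 TPM, a level corrected for gene length and library size, in control and between 1916 and 2966 TPM in OGTi. Within that list Pdgfrb and Lrat fell, with log2 fold changes of -1.68 and -1.78 (edgeR adjusted p 0.00154 and 0.00232), while Des, Acta2, Reln and Col1a1 did not pass the test. Of these 4, Col1a1 was lower in 4 of 4 pairs (log2 fold change -0.85 ± 0.30 SE, adjusted p 0.0761). Markers of endothelial cells, which express Klf2 and Klf4 strongly, summed to between 0.98 and 2.56 TPM in control and between 0.26 and 0.81 TPM in OGTi, with no count for Cdh5 in 6 of the 8 libraries. Tek, the angiopoietin receptor, fell in 4 of 4 pairs (log2 fold change -3.36, adjusted p 0.00235), from 1.14 ± 0.458 to 0.102 ± 0.0922 TPM (SD, n = 4), and was the called gene of that list. The lower sum rested on Tek, as the other 5 markers summed to between 0.42 and 0.97 TPM in control and between 0.22 and 0.77 TPM in OGTi (a sum added after the values were seen), with Pecam1 higher in 3 of 4 pairs (log2 fold change 1.33, adjusted p 0.274). Hepatocyte markers summed to at most 0.83 TPM in any library, and Apoa1 and Alb, the highest of them, did not pass the test (adjusted p 0.436 and 0.985). Macrophage markers summed to between 16.9 and 36.1 TPM in control and between 29.3 and 71.6 TPM in OGTi. Most of that sum was Cd68, a lysosomal gene that is not restricted to macrophages, which rose 2.83-fold (adjusted p 0.00154). Csf1r, the receptor of the macrophage growth factor M-CSF, had counts in all 8 libraries, with 4.89 ± 1.49 TPM in control and 3.87 ± 1.31 TPM in OGTi (SD, n = 4; adjusted p 0.942). Adgre1, Clec4f, Timd4 and Ptprc reached at most 0.96, 0.27, 0.18 and 0.11 TPM in any library, with no count in 3, 5, 6 and 2 of the 8. Marker genes that were not called are named after their values were seen. Cholangiocyte markers, mostly Krt19, summed to between 87.2 and 141 TPM in control and between 57.2 and 84.1 TPM in OGTi. Krt19 fell (log2 fold change -0.66, adjusted p 0.0462), and Sox9 of the same list rose (log2 fold change 3.03, adjusted p 0.00858). The part of other cells in the results was not tested. In bulk RNA, fewer cells of a type and less RNA per cell cannot be told apart.

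Of the 10 genes, 5 changed in OGTi by edgeR's quasi-likelihood test, in which the pairs entered as a block and a gene was called at an adjusted p (Benjamini-Hochberg, all genes) no higher than 0.05. Egr1, Klf4 and Klf6 rose, Egr2 and Klf10 fell, and Egr3, Klf2, Ier2, Ier3 and Myc did not pass the test. Over all 19963 genes tested, 18.4% were called, 8.13% as higher and 10.2% as lower. The median log2 fold change of the 10 genes was 0.17, against 0.0053 over all genes tested. As the 10 genes were chosen with earlier results of these data known, these comparisons with all genes are not independent evidence. Members of 1 family went in opposite directions. Scaled counts of control and OGTi did not overlap in 4 members (Egr1, Klf4, Klf6 and Klf10), where 23.5% of all genes tested showed no overlap. Scaled counts are counts brought to a common library size, with each library's size corrected by its TMM factor.

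**Figure D1:**
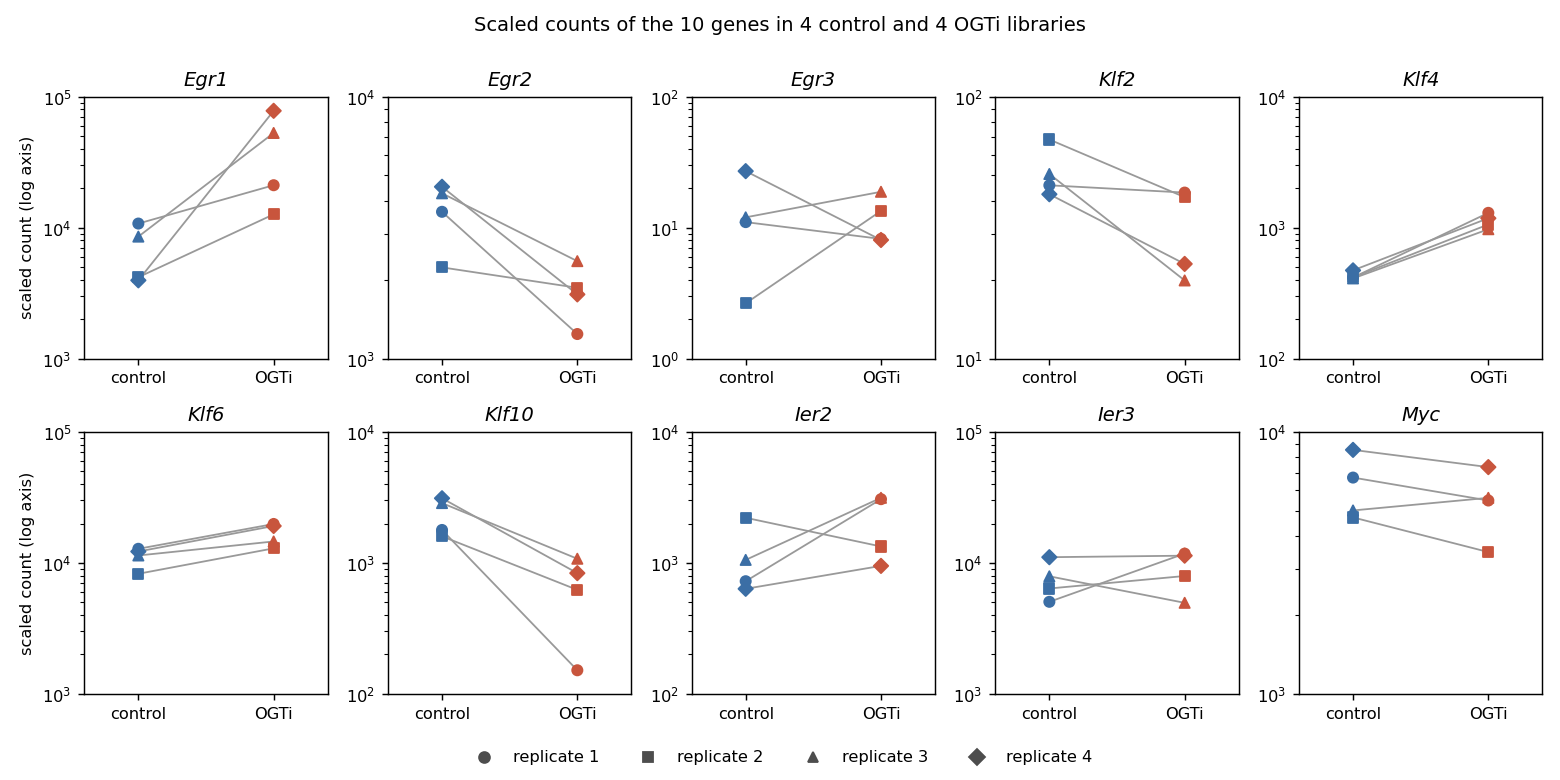
Scaled counts (log axis, a range of its own for each gene) of the 10 genes in control (blue) and OGTi (red) libraries, with a grey line joining the libraries of 1 replicate. Egr1, Klf4, Klf6 and Klf10 separate the groups, Klf4 with nearly parallel lines and Egr1 with lines of unequal slope.

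**Figure D2:**
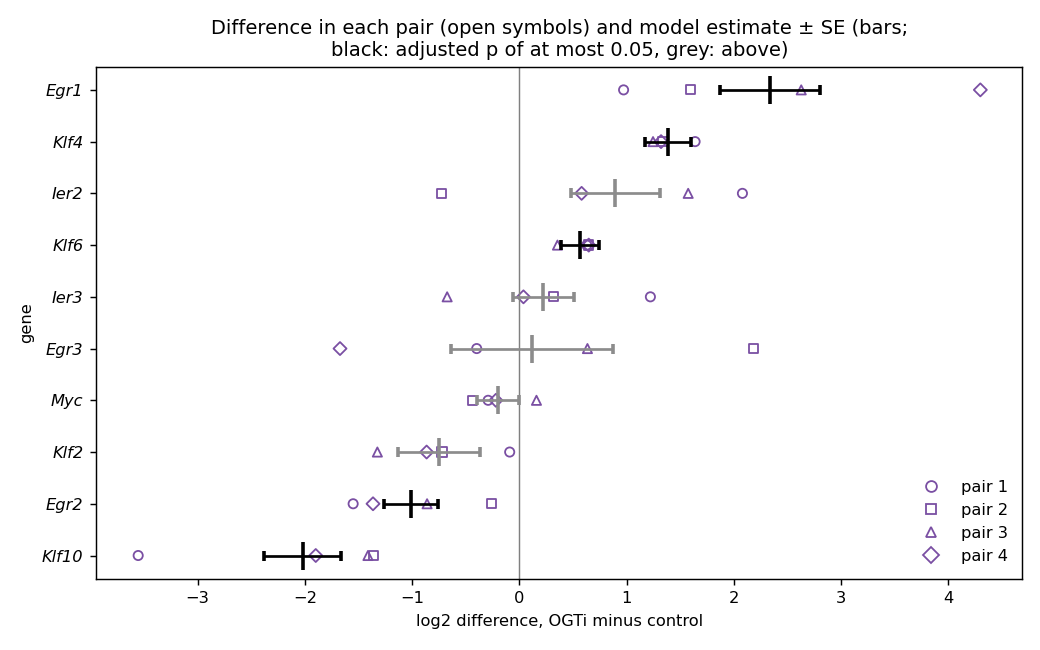
Log2 difference between OGTi and control in each of the 4 pairs (open symbols) and the edgeR estimate with its SE (bars), sorted by the estimate. Egr1 spans from 0.97 to 4.30 over the pairs, while Klf4 spans from 1.25 to 1.64.

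Egr1 encodes the founding member of the EGR family, an activator of growth factor and coagulation genes. It is on chromosome 18 (34992876 to 34998049, GRCm39). The control libraries held 10732, 4176, 8529 and 3955 scaled counts in replicates 1 to 4, and the OGTi libraries 21060, 12618, 52778 and 77920. Every OGTi library was above every control library, with the highest OGTi value in the replicate whose control was lowest. Egr1 rose 5.05-fold (log2 fold change 2.34 ± 0.47 SE, edgeR adjusted p 0.00734). The size of the rise was poorly fixed, as the log2 difference was 0.97, 1.60, 2.63 and 4.30 in pairs 1 to 4 and the 95% interval of the model ran from 1.297 to 3.378. Without replicate 4 the log2 fold change was 1.74 (adjusted p 0.0149), which is 1 of 12 alternatives, all of which kept the call. Control replicate 4 also held 437 scaled counts of Jun and 568 of Dusp1, 2 early genes named after their values were seen, against 3235 to 4796 and 17100 to 18458 in the other controls. Whether the low Egr1 count of that library shares an origin with these was not tested.

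Egr2 (Krox20) encodes an EGR factor known from hindbrain patterning and Schwann cell myelination. It lies on chromosome 10 (67371305 to 67378018). Scaled counts were 3632, 2228, 4274 and 4526 in control and 1240, 1863, 2354 and 1757 in OGTi. The groups overlapped only because control replicate 2 was below OGTi replicate 3, and each pair was lower in OGTi. Egr2 fell to 0.496 times control (log2 fold change -1.01 ± 0.25 SE, edgeR adjusted p 0.0201). The call was lost without replicate 1, 3 or 4, where the log2 fold changes were -0.83, -1.06 and -0.88 and the adjusted p 0.0535, 0.0661 and 0.0964.

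Egr2 has several transcripts, and the gene length that RSEM averages over them differed between libraries. It was 6601, 6906, 6009 and 5019 bases in control and 6474, 6464, 5425 and 4464 bases in OGTi. The length was thus shorter in OGTi in each pair, yet it varied more between replicates than between groups, with 6134 ± 831 bases in control and 5706 ± 964 bases in OGTi (SD, n = 4). For the other members with several transcripts (Egr3, Klf4, Klf10 and Myc) the length moved little, for Klf4 between 4102 and 4250 bases.

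The RefSeq promoter table held windows for 5 of the members, and 5 of its 9 windows belonged to Egr2. The Egr2 site printed here is the match to the CArG box, the element SRF binds, in the window whose start is nearest to that of the canonical transcript, with the match in capitals. It is shown because Egr2 is a textbook SRF target, was called and had a window in the table. It lies 72 to 63 bases before that start, at chr10:67373617-67373646 (GRCm39, plus strand, with flanking bases). CArG boxes were present in 1.47% of all 32851 windows of 250 bases before a start. The match is a description of the letters and not a test of SRF binding. Other early genes rose, such as Egr1 and Fos (log2 fold changes 2.34 and 1.67), and Egr1 had no window. A link between the site and the lower Egr2 counts was not tested.
Egr2 CArG site: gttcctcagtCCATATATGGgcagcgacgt

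Egr3, an EGR factor of lymphocyte and muscle spindle development, was close to the limit of detection. Its expected counts were 12, 3, 13 and 28 in control and 8, 12, 17 and 7 in OGTi. No group stood above the other, and the estimate of 0.12 ± 0.75 (SE; adjusted p 0.938) leaves an interval from -1.56 to 1.80. A change of the size of Egr2 could not be detected at this depth.

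Egr1 was also compared with Egr2 within each library, where the ratio of 2 genes does not depend on scaling and shows a relative change only. The mean log2 ratio of Egr1 to Egr2 counts went from 0.82 ± 0.73 to 4.20 ± 1.12 (SD, n = 4) and was higher in 4 of 4 pairs, by 2.52, 1.85, 3.49 and 5.67. An exact sign-flip test over 4 pairs gave a two-sided p of 0.125, the smallest it can give. Egr1 was higher and Egr2 lower in each pair, so this outcome was fixed in advance and adds no evidence. Of the summed TPM of the 3 EGR genes, Egr1 held 77.0% ± 12.1 in control and 96.8% ± 2.15 in OGTi (SD, n = 4).

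Klf4, one of the reprogramming factors and a differentiation and cell cycle arrest factor in epithelium and smooth muscle, rose by a similar amount in each pair. It lies on chromosome 4 (55527139 to 55532528). Control libraries held 416, 417, 409 and 471 scaled counts, and OGTi libraries 1296, 1056, 971 and 1179. The lowest OGTi library lay far above the highest control library, and the 4 pairs differed by 1.64, 1.34, 1.25 and 1.32 on the log2 scale. Klf4 rose 2.62-fold (log2 fold change 1.39 ± 0.21 SE, edgeR adjusted p 0.00217). It was called in each of the 12 alternatives, with log2 fold changes from 0.96 to 1.66.

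Klf6, known in stellate cells as Zf9, lies on chromosome 13 (5911481 to 5920393) and was the most abundant of the 4 KLF genes. Scaled counts were 12830, 8271, 11407 and 12234 in control and 19842, 12933, 14599 and 19165 in OGTi. The groups did not overlap, by a narrow margin between control replicate 1 and OGTi replicate 2. The log2 fold change was 0.57 ± 0.18 (SE), with pair values of 0.63, 0.64, 0.36 and 0.65, and the adjusted p was 0.0497. This call stood at the threshold and held in only 3 of 12 alternatives. The log2 fold change was 0.24 on the log2(TPM + 1) scale (adjusted p 0.269) 0.37 with library totals alone (adjusted p 0.182) and 0.57 with no replicate block (adjusted p 0.102), and over all alternatives the highest adjusted p was 0.287.

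Klf10, an early TGF-beta-induced gene also named TIEG1, moved most among the KLF members. It lies on chromosome 15 (38291703 to 38300959). Scaled counts were 1787, 1598, 2866 and 3120 in control and 152, 623, 1077 and 836 in OGTi. All OGTi libraries lay below all controls, OGTi replicate 1 far below the rest. Klf10 fell by 2.02 ± 0.36 (SE) on the log2 scale, a 4.06-fold decrease, with an adjusted p of 0.00424. The fall was 1.55 on the log2 scale without replicate 1 (log2 fold change -1.55, adjusted p 0.00503), and the call held in all 12 alternatives.

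Klf2, a factor best known from flow-exposed endothelium and quiescent T cells, was low throughout, with 50, 78, 55 and 44 expected counts in control and 42, 37, 18 and 20 in OGTi. It was lower in OGTi in 4 of 4 pairs, though the groups overlapped. The log2 fold change of -0.75 ± 0.38 (SE) did not pass the test (adjusted p 0.207), and its interval ran from -1.60 to 0.10. It passed in 1 of 12 alternatives, limma-trend on log2(TPM + 1), with an adjusted p of 0.0389.

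The promoter stretches of Klf4 and Klf6 are shown because both genes rose and both had a window in the table. Motifs were searched on both strands, and capitals mark each match. The GC box was GGGCGG, found in 32.7% of all windows. The CACCC box was CCACCC, found in 28.1% of them. The E-box was CACGTG, found in 6.02%. An EGR site was GCGGGGGCG, or alternatively GCGTGGGCG, found in 3.06%. The cAMP response element was TGACGTCA, found in 1.55%, and the TATA box was TATAAA, found in 12.4%. In Klf4, GC boxes overlap each other and the EGR site. The Klf4 stretch covers chr4:55532529-55532725 (GRCm39, minus strand, 197 bases) and the Klf6 stretch chr13:5911238-5911480 (plus strand, 243 bases), both ending where the annotated gene begins.
Klf4: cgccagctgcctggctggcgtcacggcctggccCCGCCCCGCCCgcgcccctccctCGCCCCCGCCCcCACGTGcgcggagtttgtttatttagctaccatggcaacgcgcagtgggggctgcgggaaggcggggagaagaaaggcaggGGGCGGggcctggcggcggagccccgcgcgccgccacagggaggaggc
Klf6: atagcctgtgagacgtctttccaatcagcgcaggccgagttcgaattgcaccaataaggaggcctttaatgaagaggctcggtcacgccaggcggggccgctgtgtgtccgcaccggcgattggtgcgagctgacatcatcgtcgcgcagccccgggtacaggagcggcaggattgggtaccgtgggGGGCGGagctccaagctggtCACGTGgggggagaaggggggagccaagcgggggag

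Both stretches held an E-box, the core that MYC and MAX bind, 182 to 177 bases before the RefSeq start in Klf4 and 43 to 38 bases before it in Klf6. Distances are counted from the RefSeq start, which lies inside the annotated gene in both, so that the printed stretches stop short of it. Klf4 also held an EGR site, 194 to 186 bases before its RefSeq start, with 4 GC boxes against 1 in Klf6. The Klf2 window had an EGR site as well, and that of Ier3 had a GC box alone. GC content of the 250 bases was 74.0% for Klf4, 71.2% for Klf2, 64.8% for Klf6, 61.6% for Egr2 and 54.4% for Ier3, against a median of 52.4% over all windows. These matches are descriptions of the letters and were not tested as binding sites. Egr1, Egr3, Klf10, Ier2 and Myc had no window in the table that was used, and the windows of Klf2 and Ier3 are not printed.

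The mix of the 4 KLF members changed with the treatment. Other KLF genes are left out of it, such as Klf13 at 34.2 TPM in control and 21.7 TPM in OGTi. Of the summed TPM of Klf2, Klf4, Klf6 and Klf10, Klf10 held 22.5% ± 4.69 in control and 5.52% ± 3.38 in OGTi (SD, n = 4). Klf6 went from 73.7% ± 4.61 to 87.9% ± 3.40, and Klf4 from 2.89% ± 0.576 to 6.13% ± 0.712. None of these 3 shares overlapped between the groups, but they depend on each other, as a lower Klf10 raises the other shares. Klf6 TPM itself overlapped, with 99.7 to 155 in control and 141 to 192 in OGTi. The mean log2 ratio of Klf4 to Klf10 counts within a library went from -2.39 ± 0.44 to 1.05 ± 1.42 (SD, n = 4). It was higher by 5.20, 2.70, 2.66 and 3.22 in pairs 1 to 4, so pair 1 raised the OGTi mean. An exact sign-flip test gave a two-sided p of 0.125, the smallest possible with 4 pairs. Klf4 was higher and Klf10 lower in each pair, so this outcome was fixed in advance and adds no evidence.

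Of the 13 other KLF genes, 12 were tested, of which 2 rose and 1 fell, where 18.4% of all genes tested were called. Klf15, a glucocorticoid-responsive regulator of metabolism, rose from 54.3 ± 44.1 to 377 ± 73.6 scaled counts (SD, n = 4; log2 fold change 3.06 ± 0.48 SE, adjusted p 0.00234). The call held in all 12 alternatives, but the size moved, to a log2 fold change of 3.69 without replicate 2, whose control library held 118 scaled counts against 23.9 to 50.4 in the other controls, and to 1.69 on the log2(TPM + 1) scale. Klf5, a partner and antagonist of KLF4 in epithelium and smooth muscle, rose from 51.0 ± 28.9 to 160 ± 39.3 (log2 fold change 1.79 ± 0.41 SE, adjusted p 0.0130), a call lost without replicate 1 (adjusted p 0.0585) or 4 (adjusted p 0.0643). Klf7, a factor of neuronal and adipocyte differentiation, fell from 1009 ± 242 to 348 ± 68.4 (log2 fold change -1.52 ± 0.22 SE, adjusted p 0.00152). Klf14 had no count in any control library, and the median log2 fold change of the remaining 11 genes was -0.34.

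**Figure D3:**
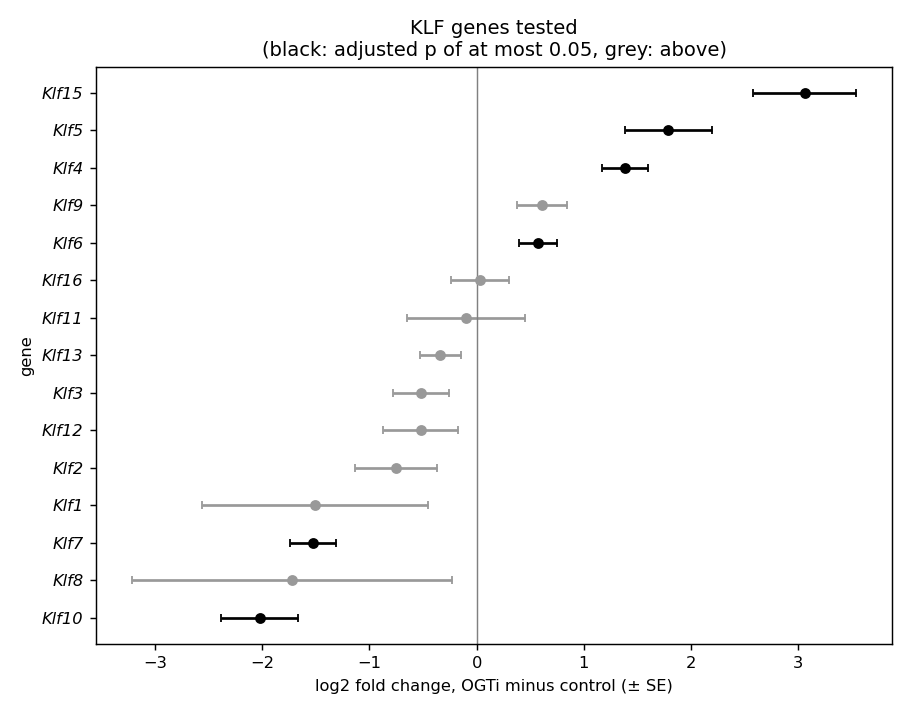
Log2 fold change with SE of the KLF genes tested, except Klf14, which had no count in any control library. Klf15, Klf5, Klf4 and Klf6 were called higher and Klf7 and Klf10 lower, so that the family spreads on both sides of 0.

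Ier2 encodes a small nuclear protein of the early response, on chromosome 8 (85387960 to 85389483). Its scaled counts were 726, 2214, 1055 and 635 in control and 3071, 1337, 3145 and 950 in OGTi. It was higher in OGTi in 3 of 4 pairs and lower in pair 2, whose control library was the highest of that group. The log2 fold change of 0.90 ± 0.41 (SE) did not pass (adjusted p 0.165), with an interval from -0.02 to 1.81. Without replicate 2 it was 1.44 (adjusted p 0.0221), and with no low-count filter the adjusted p was 0.0295, so that the call of Ier2 depended on replicate 2 and on the filter.

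Ier3 (IEX-1), a stress-inducible modulator of cell survival on chromosome 17 (36132568 to 36133815), had the highest level per length of all members in control, 433 ± 152 TPM (SD, n = 4). Scaled counts were 5051, 6384, 7911 and 11069 in control and 11789, 7952, 4961 and 11369 in OGTi. The groups overlapped over most of their range, and pair 1 and pair 3 went in opposite directions (1.22 and -0.67 on the log2 scale). The log2 fold change was 0.22 ± 0.28 (SE; adjusted p 0.645; interval from -0.40 to 0.85).

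Myc, the master regulator of ribosome and nucleotide synthesis genes, lies on chromosome 15 (61857227 to 61862223). Scaled counts were 6701, 4721, 5018 and 8548 in control and 5477, 3481, 5607 and 7347 in OGTi. The groups overlapped, with replicate 4 highest and replicate 2 lowest in both, and 3 of 4 pairs were lower in OGTi. The log2 fold change was -0.20 ± 0.19 (SE; adjusted p 0.537) with an interval from -0.63 to 0.23, so a fall to the level of Egr2 lay outside the interval. On the TPM scale Myc was lower, with 141 ± 39.8 TPM in control and 97.7 ± 27.6 TPM in OGTi (SD, n = 4). There limma-trend gave log2 fold changes of -0.52 with 1 added (adjusted p 0.0475) and -0.52 with 0.1 added (adjusted p 0.0499). The median of all genes on the TPM scale was itself -0.10 with 1 added and -0.23 with 0.1 added.

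Its relatives were examined with a list of 12 genes of the MYC network, of which 1 changed, while DESeq2 in place of edgeR called 2 of them higher. Mycn, the paralog expressed mainly in progenitor cells, fell from 280 ± 106 to 56.1 ± 9.25 scaled counts (SD, n = 4; log2 fold change -2.25 ± 0.29 SE, adjusted p 0.00101) and was called in all 12 alternatives. It was already scarce beside Myc, with a mean log2 count ratio of Mycn to Myc of -4.52 ± 0.64 in control and -6.57 ± 0.24 in OGTi (SD, n = 4). The ratio was lower in 4 of 4 pairs (exact sign-flip test, two-sided p = 0.125, the smallest possible). Among 20 MYC target genes 1 rose and 2 fell, with a median log2 fold change of -0.19. That count is near the share of 18.4% called over all genes tested. The number called lower ran from 1 to 5 over the alternatives. Odc1, the rate-limiting enzyme of polyamine synthesis, rose (1.02 ± 0.22 SE, adjusted p 0.0100), whereas Ccnd2, which encodes cyclin D2 (-0.96 ± 0.19, adjusted p 0.00702), and Polr1b, a subunit of RNA polymerase I (-1.43 ± 0.37, adjusted p 0.0229), fell. Odc1 lost its call without replicate 3 (adjusted p 0.0753), and Polr1b without replicate 4 (adjusted p 0.0790) or with no replicate block (adjusted p 0.0569).

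The members were also compared per length. The order of mean TPM in control was Ier3 (433), Myc (141), Klf6 (137), Egr1 (118), Ier2 (43.6), Klf10 (42.3), Egr2 (31.7), Klf4 (5.24), Klf2 (1.59) and Egr3 (0.172). From Myc to Egr2 each gene overlapped the next in its range over libraries, so neighbours in that stretch were not resolved, whereas genes further apart could be, as the lowest Myc library (105 TPM) lay above the highest Ier2 library (82.6 TPM). In OGTi, Egr1 came first with 564 ± 424 TPM (SD, n = 4), overlapping Ier3 with 406 ± 130 TPM. Klf10 and Klf4 overlapped in OGTi, at 9.96 ± 5.78 and 11.1 ± 1.13 TPM, and their order rested on replicate 1, where Klf10 was at 1.85 TPM. Without that library, a setting added after the values were seen, the means were 12.7 TPM for Klf10 and 11.2 TPM for Klf4. The members summed to 953 ± 179 TPM in control and 1326 ± 493 TPM in OGTi (SD, n = 4), and Egr1 accounted for 12.8% ± 6.73 and 38.4% ± 18.3 of that sum.

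**Figure D4:**
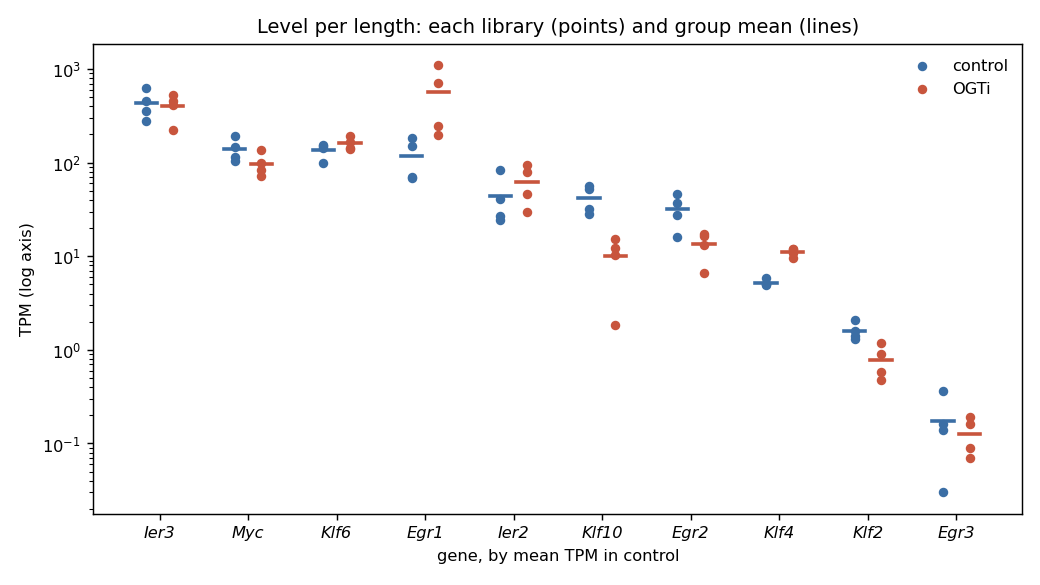
TPM (log axis) of each gene in the 4 control and 4 OGTi libraries (points) with the group mean (lines), sorted by the mean in control. Ier3 leads in control, Egr1 joins it at the top in OGTi, and Klf2 and Egr3 stay lowest, at means of 1.59 and 0.172 TPM in control.

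The other immediate early genes were examined beside Egr1 and Klf4. Of 21 such genes, 13 rose and 1 fell, with a median log2 fold change of 1.37. As the list was written with earlier results of these libraries known, its direction is not independent evidence. The nuclear receptor Nr4a1 rose from 550 ± 299 to 5881 ± 4976 scaled counts (SD, n = 4; log2 fold change 3.15 ± 0.26 SE, adjusted p 0.000201). Nr4a3, of the same family, rose from 19.3 ± 11.3 to 361 ± 393 (3.91 ± 0.36 SE, adjusted p 0.000242). Its OGTi mean was raised by replicate 4, at 949 scaled counts against 131 to 202 in the other OGTi libraries. The call held in all 12 alternatives, with log2 fold changes from 1.41 to 4.22. Arc, an early gene of synaptic activity, had a log2 fold change of 2.91 ± 0.27 (adjusted p 0.000258), and the stress factor Atf3 one of 3.06 ± 0.30 (adjusted p 0.000294). Dusp6, a phosphatase that removes the activating phosphates of ERK and was named after its value was seen, was the gene that fell (-1.22 ± 0.19 SE, adjusted p 0.00229). Of the 13 higher genes, 9 were called in every alternative, while the number of higher genes ranged from 10 to 17 over the alternatives.

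**Figure D5:**
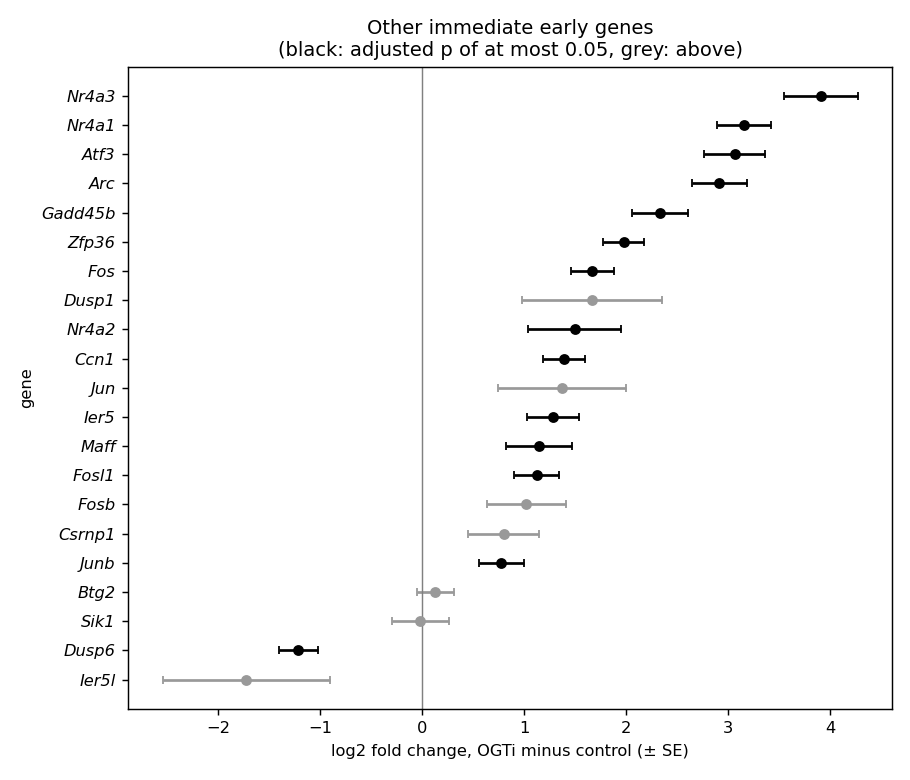
Log2 fold change with SE of the 21 other immediate early genes. Nr4a3, Nr4a1, Atf3 and Arc lie furthest to the right at 3.91, 3.15, 3.06 and 2.91, and Dusp6 is the called gene to the left of 0.

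Genes that act upstream of the early response were followed with 6 SRF and TCF genes, of which 1 rose and 3 fell. Elk4, a TCF, rose (log2 fold change 1.44 ± 0.25 SE, adjusted p 0.00349) and Elk3, a TCF that represses when ERK is idle, fell (-1.33 ± 0.29, adjusted p 0.0103). The SRF coactivators Mrtfb and Mrtfa fell, with log2 fold changes of -0.86 ± 0.21 (adjusted p 0.0202) and -0.82 ± 0.21 (adjusted p 0.0238). Without replicate 3 or 4 none of the 3 lower genes passed, with adjusted p from 0.0609 to 0.136, and Mrtfa also lost its call with no replicate block (adjusted p 0.109) and with the length trend removed (adjusted p 0.0539). Srf itself, named after its value was seen, did not pass (log2 fold change -0.63 ± 0.23 SE, adjusted p 0.0880). It was lower in 4 of 4 pairs, from 388 ± 52.4 to 251 ± 33.5 scaled counts (SD, n = 4), without overlap.

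Genes known as targets of EGR factors were examined next. Of 12 EGR target genes 2 changed, and both fell, with a median log2 fold change of -0.38. That count is near the share of 18.4% called over all genes tested. With DESeq2 or with no low-count filter, 4 were called lower. F3, which encodes tissue factor, the initiator of coagulation, went from 39748 ± 6672 to 7823 ± 1357 scaled counts (SD, n = 4; log2 fold change -2.34 ± 0.18 SE, adjusted p 0.000186). Fgf2, a mitogen of fibroblasts, fell as well (-2.48 ± 0.36 SE, adjusted p 0.00156), and both calls held in all 12 alternatives. Of the EGR corepressor genes and the remaining EGR gene (Nab1, Nab2 and Egr4) none was called. The log2 fold changes of Nab2, itself an EGR target, and Nab1 were -0.08 ± 0.27 and -0.53 ± 0.27 (SE; adjusted p 0.877 and 0.201).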

How the data were processed

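RNA-seq libraries were made from polyadenylated RNA with a stranded kit. Per the labels' processing notes and the study's methods, the authors aligned paired-end reads to mm39 (GRCm39) with Bowtie2 2.3.5.1 and counted them with RSEM 1.3.1. The deposited table of each library gives RSEM's expected counts (estimates that split shared reads), TPM and gene lengths averaged over transcripts. A deposited comparison table of the authors, made with DESeq2 1.36.0, holds fold changes and p-values and was not used. Unused columns of unmapped samples numbered 0.

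For the tests, expected counts were rounded. Those of the 10 members were whole in every library (to within 0.005). Genes with a total of at least 10 counts (19963) were tested with edgeR 4.0.16 in R 4.3.3 (TMM, glmQLFit, glmQLFTest) with the replicate as a block, because the study's methods pair the samples, with Benjamini-Hochberg adjustment across all of them. The SE was the log2 fold change divided by the root of F, and model intervals are 95% intervals. Pair values are differences of log2 CPM with 0.5 counts added. The code was tested on simulated data. Alternatives were DESeq2 1.42.0, other scalings, no count filter (at least 1 count), no block, removal of each library's trend on gene length (lowess, span 0.3), limma-trend (limma 3.58.1) on log2(TPM + 1) or log2(TPM + 0.1), and each replicate left out.

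Members and lists were chosen with earlier results of these data known. All members are named, and from each list up to 4 called genes of lowest adjusted p, or 2 of highest mean TPM where none was called. Gene positions come from GENCODE vM39 (GRCm39). Promoter sequences come from RefSeq (table on GRCm38.p6) and were placed on GRCm39 by an exact match of the 300 bases of the window. Correlations of deviations from group means of same-numbered libraries were 0.138, 0.184, 0.0678 and 0.271. Those of differently numbered libraries ran from -0.247 to 0.16. Control replicate 2 with OGTi replicate 1 (0.16) was above the same-numbered value of replicate 1. Control replicate 3 with OGTi replicate 4 (0.114) was above that of replicate 3. The pairing thus rests on the study's methods. The number of cultures, 4 a group, limits the precision.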

Additional observations from a re-analysis of the deposited data

Results flagged for a closer look

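Scaled counts of the 10 genes were examined for a library far from the rest of its group, in 20 groups of 4, of which chance would set apart about 1 in 20. One was found. Klf4 in control replicate 4 held 471 scaled counts, against 409 to 417 in the other control libraries. Without replicate 4 its log2 fold change was 1.42 (edgeR adjusted p 0.0133). The cause was not tested.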

How the results depend on the processing

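Egr1, Klf4 and Klf10 kept their direction and call in all 12 alternatives, with log2 fold changes from 1.74 to 2.83, from 0.96 to 1.66 and from -2.36 to -1.55. Egr2 kept its direction in all and its call in 9, and Klf6 its direction in all and its call in 3. Leaving out 1 replicate gave from 3 to 5 members called (3 without replicate 1, 3 or 4), from 10 to 14 other immediate early genes higher and from 1905 to 3124 genes in all, each from a fit on fewer samples. When the replicate block was dropped, 4 members and 2991 genes were called, and Klf6 (adjusted p 0.102) lost its call, while the pairing itself comes from the study's methods. Ier3 and Egr3, called nowhere, changed sign. Ier3 ranged from -0.10 (-0.103, without replicate 1) to 0.52 over the fits that left out 1 replicate, and was at -0.0996 and -0.0999 with limma-trend on TPM (1 and 0.1 added). Egr3 was at -0.084 with library totals alone, at -0.12 with no replicate block, at -0.051 and -0.15 with limma-trend on TPM (1 and 0.1 added), and ranged from -0.46 to 0.77 over the fits that left out 1 replicate. The cause was not tested. The share of higher genes among those called was 44.3% with TMM, 54.2% with upper-quartile scaling, 30.1% with library totals alone and 25.7% on TPM, with medians over all genes of 0.0053, 0.13, -0.19 and -0.10 on the log2 scale. EGR targets called lower numbered 4 with DESeq2 and with no low-count filter, and MYC targets called lower between 1 and 5. The low counts of Egr3 and Klf2 limit what can be detected.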

Other observations

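In Egr1, OGTi replicate 4 was the highest and OGTi replicate 2 the lowest library of its group. This order was noticed after the values were seen and was then counted in the 13 other immediate early genes called higher. OGTi replicate 4 was highest in 11 of them and OGTi replicate 2 lowest in 11. OGTi replicate 4 also had counts in 23746 genes, while the rest of the OGTi libraries had between 19422 and 19682, and its part in these values was not tested.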
